A study of Mus musculus with 2 samples.

Results

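The cells described here are newborn mouse kidney cells that carry the transcription factor genes Tfap2b and Pou3f3 but show almost none of the salt transporter transcripts of the distal nephron. They were proposed as early distal precursors, cells on the way to the thick ascending limb and distal convoluted tubule before their transporters appear. A barcode entered the set when it held 3000 or more unique molecular identifiers (UMIs, counted transcripts) from 500 or more genes, no more than 20% of them mitochondrial, and of these 2 or more from Tfap2b and 1 or more from Pou3f3. It was left out with more than 1 UMI of Slc12a1 (the NKCC2 cotransporter of the thick limb), more than 1 of Slc12a3 (the NCC cotransporter of the distal convoluted tubule) or more than 5 of S100g, and with any UMI of Fgf8, more than 2 of Col3a1 or any of Pecam1. The rule found 123 of 9735 kept cells, 1.26%. Every gene of the rule is a measured value, so levels of these 8 genes are descriptions of the choice, not findings.

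The data go against the proposed name for most members. Gata3, a factor of the ureteric lineage, was found in 94 of the 123 members and Irx1, a factor of the distal nephron, in 28. These are raw counts from cells of unequal depth. Lhx1, which the renal vesicle expresses, was found with Gata3 in 75 members and without it in 19. It was not particular to nephron-like members. The Aqp2 Fxyd4 and Rprm Ret clusters described below gave 132 and 260 of its 545 UMIs in replicate 1. In replicate 2 they gave 58 and 33 of 115. The collecting duct water channel gene Aqp2 reached 1123 CPM (UMIs of a gene per 1000000 UMIs) in the set in replicate 1 and 1123 in replicate 2. The highest level in the 3 comparison sets described below was 172 CPM, in the Slc12a3 set. That set also held Gata3 at 263 and 123 CPM and Irx1 at 1.48 and 4.97 CPM. Gata3 without Irx1 therefore does not by itself tell collecting duct from distal convoluted cells. The set is therefore called the Tfap2b Pou3f3 set, after its rule, and is given no cell type name.

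The series holds 2 libraries of whole kidney at postnatal day 0 (P0), read on the Chromium droplet platform. Both carry the genotype Rbpj c/+ ; Foxd1cre/+, which is read here as 1 conditional allele of Rbpj, the DNA-binding partner of Notch receptors, with Cre recombinase under Foxd1, a gene of stromal progenitors. No other genotype was analysed here, so all cells, members and comparison cells alike, share this genotype and its effect cannot be told apart from normal development. Foxd1 itself gave 1 UMI in the members of replicate 1 and 0 in those of replicate 2, from 4685311 and 2198382 UMIs in all, while Rbpj gave 65.7 and 68.2 CPM. The labels do not say whether each library is 1 animal or a pool.

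As background, the collecting system and the nephron come from different parents. The ureteric bud, marked by Ret at its tips and by Wnt9b and Gata3, branches and becomes the collecting duct, whose principal cells take up water through Aqp2 and sodium through the channel ENaC. The nephron forms from Six2-positive progenitors through the renal vesicle, which expresses Lhx1 and Fgf8, and its distal part later gains Irx1, Irx2, Slc12a1 and Slc12a3. Tfap2b and Pou3f3 are needed for the distal tubule to mature, and Tfap2a, the close relative of Tfap2b, is known from the collecting duct. Tfap2b lies on chromosome 1 at 19208914 to 19238576 and Pou3f3 on chromosome 1 at 42695768 to 42703176, both on the plus strand (GRCm38, GENCODE M21).

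The 2 libraries held 200331687 and 173166168 UMIs over all barcodes, and 5529 and 4206 kept cells with medians of 15016 and 20007.5 UMIs. Members numbered 84 in replicate 1, 1.52% of its kept cells (exact binomial 95% interval 1.21% to 1.88%), and 39 in replicate 2, 0.927% (0.660% to 1.27%). These intervals cover counting error only. Members were deeper than the average cell, with medians of 34714 and 44411 UMIs, and held 6.08% and 7.18% mitochondrial UMIs at the median. Of 6 kept barcodes found in both libraries, 1 was a member. Scrublet marked 3 members of replicate 1 and 2 of replicate 2 as likely doublets, and they were kept in the main values.

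The transporter limits removed the largest part of the candidates. In replicate 1, 635 cells held at least 2 Tfap2b UMIs and 600 of them also Pou3f3. The Slc12a1 limit left 281, the Slc12a3 limit 221, the S100g limit 139 and the Fgf8 limit 94. In replicate 2 the same steps left 705, 665, 293, 164, 68 and 43 cells. The Tfap2b threshold sits low in deep cells: 30 members held exactly 2 Tfap2b UMIs, with a median of 33711 UMIs, 56.8 CPM of Tfap2b and 1404 CPM of Aqp2. Just outside it, 98 cells with 1 Tfap2b UMI met every other condition, with 31.2 CPM of Tfap2b and 820 CPM of Aqp2. At the Fgf8 limit, 22 cells with 1 Fgf8 UMI and all else met had 455 CPM of Tfap2b and 264 CPM of Irx1, against 127 and 25.1 CPM over the members. The 10 cells with 2 Slc12a1 UMIs had 149.9 CPM of Tfap2b and 93.0 CPM of Irx1.

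All kept cells were clustered without the genes of the rule, giving 34 clusters, and the members fell mainly into 3 of them. This clustering and the member groups drawn from it were made after the members' values had been seen, so their genes are described and not tested. A cluster led by Fxyd4, Aqp2 and Aqp4 held 57 members, 34 in replicate 1 and 23 in replicate 2. A cluster led by Rprm, with Ret among its 10 leading genes, held 24 members, 19 and 5. A cluster led by Sim2, Spon1, Nrcam and Irx1 held 29 members, 21 and 8. The other 13 members lay in 7 further clusters. Members of the first 2 groups were deep, with medians of 65153 and 62978.5 UMIs, and members of the Sim2 Irx1 cluster were shallow, with a median of 15592.

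**Figure D1:**
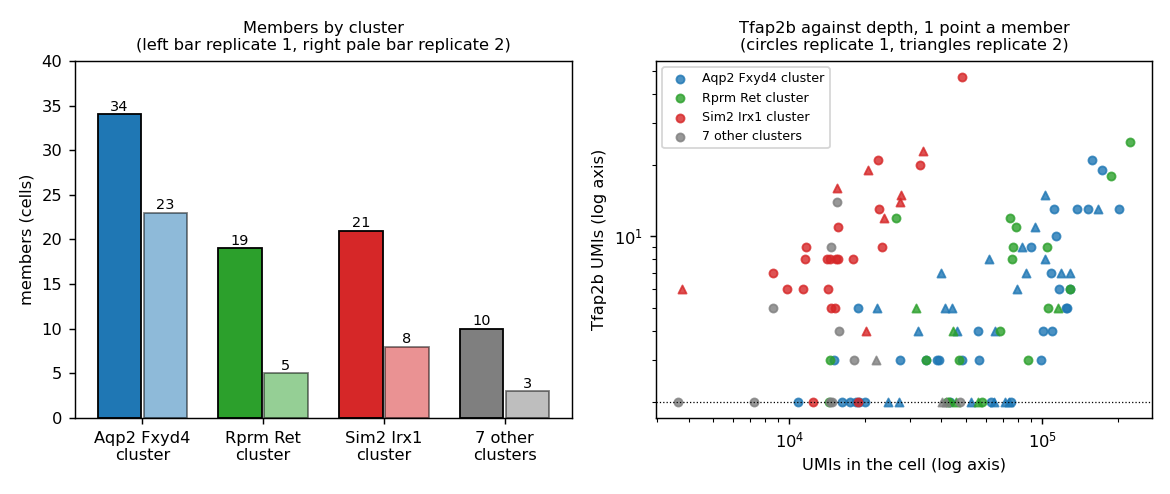
Left, number of members in each cluster group for replicate 1 (left bars) and replicate 2 (right, pale bars). Right, Tfap2b UMIs against all UMIs of each of the 123 members on log axes, coloured by cluster group, with the threshold of 2 as a dotted line; most members of the Sim2 Irx1 cluster lie above those of the Aqp2 Fxyd4 and Rprm Ret clusters at the same depth.

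Tfap2b levels of these groups are given as a description, since the rule used the gene. Its minimum of 2 UMIs asks for a higher CPM in a shallow cell than in a deep one, so part of the difference between the groups is set by the rule and by depth. In members of the Sim2 Irx1 cluster Tfap2b reached 586 CPM in replicate 1 and 632 in replicate 2. Members of the Aqp2 Fxyd4 cluster held 74.7 and 84.1 CPM, and those of the Rprm Ret cluster 93.3 and 61.4 CPM. Median Tfap2b per cell was 550 CPM (107 to 1594), 80.9 CPM (26.5 to 268) and 86.3 CPM (34.1 to 452) in that order. Pou3f3 differed less, at 165 and 226 CPM in the Sim2 Irx1 members, 131 and 106 CPM in the Aqp2 Fxyd4 members and 138 and 92.1 CPM in the Rprm Ret members. Because the deep members weigh most, the Aqp2 Fxyd4 members gave 62.4% of all UMIs of the set, the Rprm Ret members 25.9%, the Sim2 Irx1 members 7.89% and the rest 3.83%. Every value of the whole set below is weighted in this way.

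Collecting duct and nephron genes were also counted in each member. Of the 123 members, 98 held more UMIs of 12 ureteric and collecting duct genes than of 6 nephron genes, and 25 held fewer. The 6 are not all distal: Cdh6 is from the proximal list, Uncx from the nephron progenitor list and Cdh4 from the renal vesicle list. The lists are of unequal size and the 6 genes were picked after the values had been seen, so these counts are a description. The groups were also drawn with these genes: Aqp2, Fxyd4 and Elf5 are among the leading genes of one cluster, Ret of another, and Sim2, Irx1 and Irx2 of the other. All 57 Aqp2 Fxyd4 members and all 24 Rprm Ret members had more UMIs of the 12 ureteric and collecting duct genes (Ret, Wnt11, Wnt9b, Wnt7b, Hoxb7, Gata3, Aqp2, Aqp3, Avpr2, Elf5, Fxyd4, Etv5) than of the 6 nephron genes (Irx1, Irx2, Sim2, Cdh6, Uncx, Cdh4). Medians were 50.1 ureteric against 0.274 nephron UMIs per 10000 in the former and 15.4 against 0.482 in the latter. In the Sim2 Irx1 cluster the medians were 3.42 against 11.2, and 21 of 29 members held more nephron UMIs and 8 fewer. Hoxb7 and Etv5 of the ureteric list were present in this group, with 53 and 34 UMIs in replicate 1 and 35 and 13 in replicate 2. Gata3 gave 12 and 0 UMIs there, so a lean to the ureteric list in this group is not a call of lineage. Of the 13 members in other clusters 9 held more ureteric UMIs, with medians of 4.12 against 0.686. By library, 68 of 84 members of replicate 1 and 30 of 39 of replicate 2 leaned to the ureteric list. Raising the Tfap2b minimum to 5 UMIs left 69 members, 51 of them with more ureteric UMIs, and a minimum of 10 left 27, with 19.

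**Figure D2:**
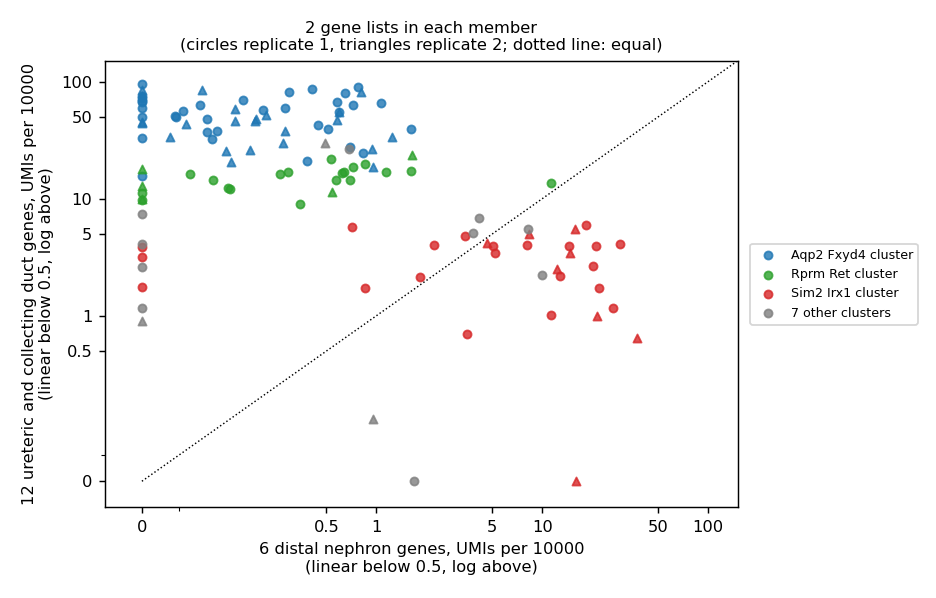
UMIs per 10000 of 12 ureteric and collecting duct genes (y axis) against 6 nephron genes (x axis) in each of the 123 members. The x axis label names distal nephron genes, but not all 6 are distal. Axes are linear below 0.5 and log above, and points are coloured by cluster group. Of the members, 98 lie above the dotted line of equality and 25 below it; the lists are of unequal size.

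Gata3, a zinc finger factor, and Irx1, an Iroquois factor, were both found in 8 members, Gata3 alone in 86, Irx1 alone in 20 and neither in 9. With each cell thinned to 3000 UMIs, Gata3 was detected in 46.4% of members in replicate 1 and 59.0% in replicate 2, against 1.83% and 1.23% of endothelial cells, which should lack it or carry it as free RNA. Irx1 was detected in 10.7% and 10.3% of thinned members, against 0.183% and 0.412% of endothelial cells. Median depth before thinning was 34714 and 44411 UMIs in members and 12790 and 14109 in endothelial cells. Tfap2a and Gata3 were found together in 78 members, and 83 members held any Tfap2a.

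Members of the Aqp2 Fxyd4 cluster carried the water and sodium machinery of principal cells. Aqp2 stood at 1963 CPM in replicate 1 and 1481 in replicate 2, and the basolateral water channel gene Aqp3 at 385 and 382 CPM. The vasopressin receptor gene Avpr2 reached 64.2 and 63.2 CPM and the Na,K-ATPase regulator gene Fxyd4 1260 and 1454 CPM. ENaC subunit genes were present throughout: Scnn1a at 109 and 123 CPM, Scnn1b at 341 and 403, Scnn1g at 203 and 223. The mineralocorticoid receptor gene Nr3c2 had 306 and 336 CPM, and Hsd11b2, whose enzyme keeps cortisol-type hormones off that receptor, 213 and 332 CPM. All 57 of these members held Aqp2, Aqp3, Elf5, Fxyd4 and Calb1 UMIs. These levels lay close to those of the 204 cells of the same cluster that failed the rule, which had 2217 and 1848 CPM of Aqp2 and 286 and 373 CPM of Scnn1b. The cells that failed were shallower, with a median of 26068 UMIs, and 157 of the cluster's 261 cells failed on Tfap2b, 84 with 0 and 73 with 1 UMI.

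Genes of acid-base intercalated cells were detected in this group too. Foxi1, the master factor of intercalated cells, was found in 31 of these 57 members, at 84.8 and 122 CPM, and the proton pump subunit gene Atp6v1g3 in 25, at 157 and 116 CPM. Slc4a9, a basolateral anion transporter gene of bicarbonate-secreting cells, had 116 and 241 CPM. Slc26a4, the pendrin gene, had 51.8 CPM in replicate 1 and 3.68 in replicate 2. With each cell thinned to 3000 UMIs, Foxi1 was detected in 19.3% of the 57 and Atp6v1g3 in 17.5%, against 0.183% and 0% of endothelial cells for Foxi1 and 0.550% and 1.23% for Atp6v1g3. The sum over 10 intercalated genes was 739 and 919 CPM in these members, lower than the 1403 and 1328 CPM in the cells of the same cluster that failed the rule. Over the set, without thinning, 34 members held both Aqp2 and Foxi1, 34 Aqp2 alone and 2 Foxi1 alone. By Scrublet score 5 of the 123 members were marked as likely doublets, at a rate assumed in advance. The part of doublets and of free RNA in this overlap was not tested.

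The Rprm Ret members held genes of the ureteric tip and of dividing cells. Ret, the GDNF receptor gene of the tip, had 266 and 331 CPM in them, against 4.88 and 3.68 CPM in the Aqp2 Fxyd4 members, and no UMI in the Sim2 Irx1 members. Wnt11, a tip ligand gene, had 225 and 276 CPM, and Etv5, a target of Ret and FGF signalling, 281 and 279.8 CPM. Ret and Wnt11 were found together in 22 members of the set. Sox9, a progenitor factor of the tip, had 452 and 253 CPM, and the calcium buffer gene Calb1 1186 and 1362 CPM, the highest of the 3 groups. Wnt9b, made by the ureteric stalk, had 109 and 68.3 CPM, and Aqp2 only 8.72 and 3.41 CPM. The summed level of 25 cell cycle genes was 2470 and 2058 CPM, against 391 and 238 CPM in the Aqp2 Fxyd4 members and 2120 and 1721 CPM in the Sim2 Irx1 members. Top2a, a mitosis gene, had 424 and 290.1 CPM in the Rprm Ret members, 44.7 and 14.1 CPM in the Aqp2 Fxyd4 members and 324 and 232 CPM in the Sim2 Irx1 members.

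The mix of groups differed between the libraries. The Rprm Ret members made up 31.8% of the set's UMIs in replicate 1 and 13.3% in replicate 2. In the whole set Ret had 87.3 CPM in replicate 1 and 47.3 in replicate 2, Sox9 169 and 57.8 CPM, and the summed cell cycle genes 1192 and 623 CPM. Within the Rprm Ret members Ret was higher in replicate 2, while Sox9 was lower there. The cell cycle sum was lower in replicate 2 within each of the 3 groups. The part of the mix in these library differences was not tested.

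The 29 members of the Sim2 Irx1 cluster came nearest to the proposed description. Besides Tfap2b they held Irx1 at 262 and 353 CPM and its neighbour Irx2 at 162 and 179.6 CPM, while the Aqp2 Fxyd4 members held 1.13 and 0.614 CPM of Irx1 and no Irx2 UMI. Lhx1, needed for the renal vesicle and early nephron, had 367 and 133 CPM, and the cyclin gene Ccnd1 1129 and 1031 CPM. The BMP antagonist gene Sostdc1 had 259 and 238 CPM, the Wnt receptor gene Lgr5 103 and 203 CPM, and Papss2, a sulphate-activating enzyme gene, 138 and 133 CPM. Lhx1 and Lgr5 were not particular to this group. The Rprm Ret members gave 260 and 33 UMIs of Lhx1 and 121 and 42 of Lgr5, from 1490241 and 293033 UMIs in all. Several collecting duct genes were low: Aqp2 2.70 and 0 CPM, Wnt9b no UMI in either library, which allows at most 3 UMIs in each of 370290 and 172590, and Gata3 32.4 and 0 CPM. Calb1 stood at 5.40 and 5.79 CPM. Other genes of the same list were present: Hoxb7 had 143 and 203 CPM, against 122 and 160 CPM in the Aqp2 Fxyd4 members, and Etv5 91.8 and 75.3 CPM. The 12 ureteric and collecting duct genes summed to 321 and 342 CPM in the Sim2 Irx1 members and to 5110 and 4414 CPM in the Aqp2 Fxyd4 members.

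Some thick limb genes were present in these 29 members, in which the rule held Slc12a1 at 1 UMI or less. Umod, the uromodulin gene, was found in 12 of them, at 162 and 261 CPM, against 2.25 and 2.46 CPM in the Aqp2 Fxyd4 members. Cldn10, a paracellular sodium channel gene, had 62.1 and 319 CPM and Casr, the calcium-sensing receptor gene, 21.6 and 17.4 CPM. After thinning to 3000 UMIs, Umod was detected in 24.1% of these members, against 1.28% and 0.617% of endothelial cells. The sodium pump gene Atp1b1 had 521 and 661 CPM. Kcnj1 and Bsnd, of the same transport system, were found in 2 and 0 of the 29.

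**Figure D3:**
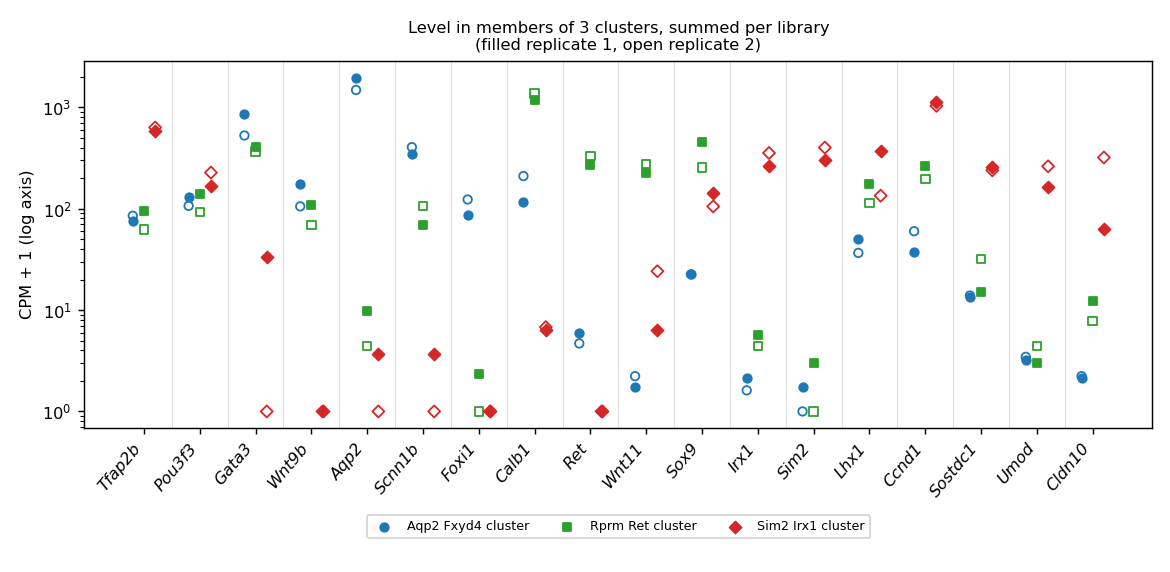
CPM plus 1 (log axis) of 18 genes in members of the Aqp2 Fxyd4, Rprm Ret and Sim2 Irx1 clusters, summed per library (filled, replicate 1; open, replicate 2). Tfap2b, Irx1, Sim2, Ccnd1 and Umod are highest in the Sim2 Irx1 members, and Gata3, Wnt9b and Scnn1b in the other 2 groups.

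The rule kept only a small part of the Sim2 Irx1 cluster. Of its 425 cells 29 were members, 6.82%, and the cluster's cells held 424 CPM of Tfap2b as a whole, against 47.3 CPM in the Aqp2 Fxyd4 cluster. More than 1 Slc12a1 UMI kept out 177 cells, Fgf8 kept out 153 and low Tfap2b 122. For 94 cells Slc12a1 was the only failed condition, for 59 it was Fgf8 and for 66 Tfap2b. The cells kept out had a higher median depth, 28465.5 UMIs, than the members. They held 701 and 774 CPM of Slc12a1, while Irx1, at 296 and 269 CPM, and Umod, at 189.6 and 185 CPM, were close to the members' levels. Cdh6, a cadherin gene of early proximal and intermediate segments, was lower in members, at 56.7 and 46.4 CPM against 216 and 328 CPM. The same cluster held 91 of the 204 cells of the Lhx1 Fgf8 set and 102 of the 591 cells of the Slc12a1 set.

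The 13 members outside these clusters were few and mixed. They lay 3 each in the clusters led by Slc5a12 (proximal tubule transporter), Slc12a3 and Atp6v1g3, and 1 each in those led by Umod, C1qa, Kap and Calb1. Their Tfap2b was at its minimum of 2 UMIs in 7 of them. The proximal receptor gene Lrp2 had 1419 and 1405 CPM in these members and 7.38 to 13.5 CPM in those of the Aqp2 Fxyd4 and Rprm Ret clusters. The single member in the C1qa cluster carried the macrophage signal of the set: C1qa gave 53 UMIs in replicate 2, 52 of them from the 3 members of replicate 2 in these clusters, and 1 in replicate 1. Ptprc, the CD45 gene, was present in the whole set at 45.5 CPM in both libraries, from Aqp2 Fxyd4 members (45.03 and 46.0 CPM) and Rprm Ret members (47.6 and 34.1 CPM) too, while C1qb was at 0.751 CPM or less in the Aqp2 Fxyd4 members.

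The set was compared with 3 other sets of cells, each chosen by UMI thresholds. An Lhx1 Fgf8 set of 204 cells, as in the renal vesicle, held at least 1 UMI of each and at most 1 of either transporter. An Slc12a1 set of 591 cells, as in the loop of Henle, held at least 10 UMIs of it and at most 1 of Slc12a3. An Slc12a3 set of 206 cells, as in the distal convoluted tubule, held at least 5 UMIs of it and at most 4 of Slc12a1. All 3 sets also held at most 2 UMIs of Col3a1 and 0 of Pecam1. UMIs were summed per library and set, and all 8 sums entered 1 fit of edgeR's quasi-likelihood test with the library as a block and Benjamini-Hochberg adjustment over 14273 genes, leaving out the genes of any rule. Cells are not replicates. The block removes the shift that all sets of a library share. The p-values therefore measure how far differences between the sets vary between these 2 libraries, pooled over all sets, and this variation may be technical. The Tfap2b Pou3f3 cells are 1 set in all 3 comparisons, so the comparisons share them. Subtracting an estimate of free RNA from the sums left 93 calls against the Lhx1 Fgf8 set and 0 against each of the others, so the calls below are those of the unsubtracted sums. That estimate takes every haemoglobin UMI of a sum as free RNA, which was not tested, and it put free RNA at 85.2% of the Lhx1 Fgf8 sum of replicate 1. The gene lists were chosen with earlier results of these data known, and a set that is mainly collecting duct by its clusters will differ from nephron cells in such genes. Each comparison set was also chosen for a gene that the rule limits in members. Genes that go along with Slc12a1, Slc12a3 or Fgf8 therefore differ in part by the choice of cells.

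**Figure D4:**
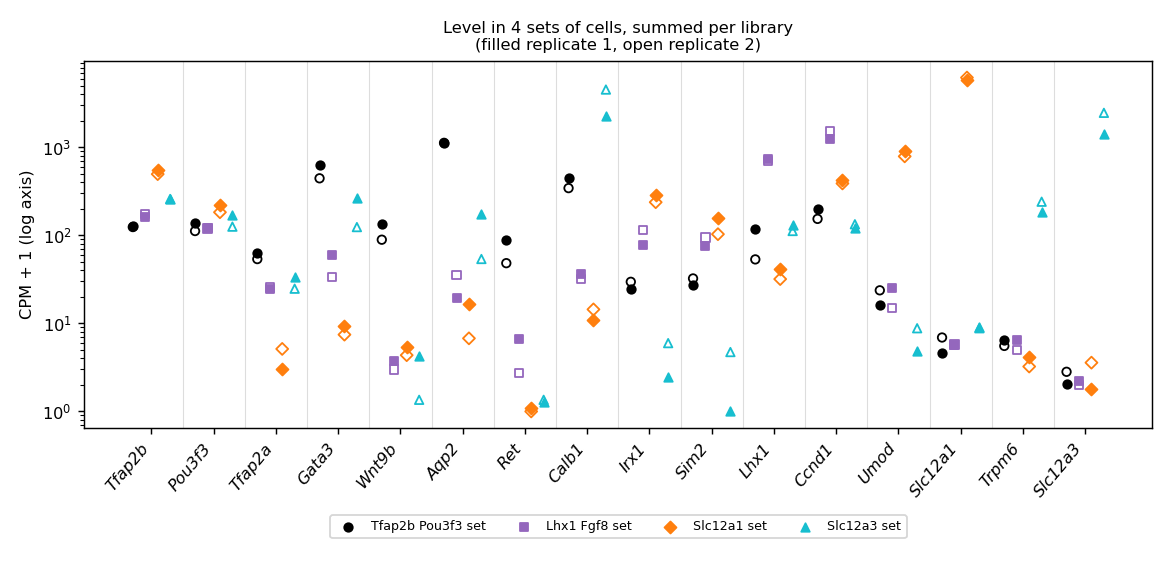
CPM plus 1 (log axis) of 16 genes in the Tfap2b Pou3f3, Lhx1 Fgf8, Slc12a1 and Slc12a3 sets, summed per library (filled, replicate 1; open, replicate 2). Gata3, Wnt9b, Aqp2 and Ret are highest in the Tfap2b Pou3f3 set in both libraries, and Tfap2b itself is lowest there.

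Against the Lhx1 Fgf8 set, collecting duct, junction and intercalated genes were higher and genes of the early nephron and of the cell cycle were lower. Of all 14273 genes tested, 40.8% were called (adjusted p under 0.05), 2929 higher and 2894 lower in the Tfap2b Pou3f3 set, 20.5% and 20.3%. The median log2 fold change over all tested genes was 0.00. Among ureteric and collecting duct genes 11 of 12 rose and none fell, with a median log2 fold change of 4.29. Aqp2, at 18.6 and 34.7 CPM in the Lhx1 Fgf8 set, was higher by 5.41 (SE 0.52, edgeR adjusted p = 6.4e-05), and Gata3, at 58.2 and 32.4 CPM there and 622 and 444 CPM in the set, by 3.55 (SE 0.15, edgeR adjusted p = 1.46e-06). Fxyd4 was higher by 4.91, Wnt9b by 5.54 and Ret by 4.15, while Hoxb7, which marks the whole ureteric tree, was higher by only 0.66, with 164 and 176 CPM against 97.5 and 114. Etv5, with 97.8 and 43.7 CPM against 91.4 and 71.3, did not pass the test.

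Intercalated cell genes rose in 9 of 10, with Foxi1 higher by 5.03 (SE 0.72, edgeR adjusted p = 0.00062). Epithelial junction and keratin genes rose in 10 of 13 and fell in 1. Krt18, a keratin of simple epithelia, was higher by 3.40 and Cdh16, the kidney-specific cadherin, by 3.07. The 1 that fell was Cdh2, the cadherin of early nephron epithelium, with 6.83 and 3.64 CPM against 139 and 142 (log2 change -4.61, SE 0.28). Of 19 tested distal convoluted and connecting tubule genes 12 rose, among them Calb1 by 3.53 and Scnn1b by 4.74, both collecting duct genes as well. Of 21 thick limb genes 9 rose and 1 fell. Among the 9 were Bsnd, Cldn19, Wfdc15b and Stk39, and the sodium pump gene Atp1b1 was higher by 1.77. The gene that fell was Enox1, with 1.07 and 1.82 CPM against 60.2 and 42.1 (log2 change -5.31, SE 0.34). Umod, with 15.4 and 22.7 CPM against 24.0 and 14.0, did not pass the test.

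Early nephron genes fell as a list. All 8 nephron progenitor genes were lower, with a median of -4.66, among them the homeobox gene Uncx, at 16.6 and 13.2 CPM against 423 and 369 (log2 change -4.76, SE 0.20, edgeR adjusted p = 1.2e-06). Of 15 tested renal vesicle and S-shaped body genes 13 were lower: Wnt4, the inducer of the renal vesicle, by a log2 change of -3.17 and Ccnd1 of -3.01. Cdh6 changed by -4.25. All 25 cell cycle genes were lower, with a median of -1.72, Top2a having 187 and 69.1 CPM against 565 and 498. Notch pathway genes were lower in 8 of 14 and higher in 2. Notch1, the receptor gene, had 42.9 and 33.7 CPM against 104 and 108 (log2 change -1.49), the fringe gene Lfng changed by -3.77 and the target Nrarp by -2.64, while Notch3 rose by 1.20. Rbpj changed by -0.33 (SE 0.12, edgeR adjusted p = 0.045), and was not called without the replicate block (edgeR adjusted p = 0.107) or by DESeq2 (adjusted p = 0.132). Cells of the Lhx1 Fgf8 set also carried more haemoglobin: Hbb-bs had 773 and 945 CPM there and 32.4 and 73.7 CPM in the set (log2 change -4.14), and 5 of 5 tested erythroid genes were lower. Their part in the other differences was not tested.

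Distal patterning factors did not move one way. Of 22 tested factors 9 were higher and 11 lower than in the Lhx1 Fgf8 set. Higher were Mecom by 0.92, Esrrg by 1.87 and Tfcp2l1 by 3.37, the last a factor of collecting duct and distal cells. Irx1 was lower by a log2 change of -1.90 (SE 0.26) and Sim2 of -1.61 (SE 0.37, edgeR adjusted p = 0.0073). Limiting all sets to cells of 8000 to 40000 UMIs reversed both, to 0.12 and 0.72, neither called. That band kept 57 of 123 members, 27 of them from the 29 of the Sim2 Irx1 cluster and 17 from the 57 of the Aqp2 Fxyd4 cluster, and the Sim2 Irx1 members then gave 42.4% of the set's UMIs. Lgr5, with a log2 change of -1.47 in the whole set, was at 0.091 in the band. Without the replicate block 7 of the 22 factors were lower in place of 11, and by DESeq2 Sim2 was not called (adjusted p = 0.404).

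Against the Slc12a1 set the main feature was the low level of thick limb genes in the Tfap2b Pou3f3 set. Of 14273 genes 30.5% were called, 1994 higher (14.0%) and 2364 lower (16.6%), with a median log2 fold change of -0.02 over all of them. Of 21 tested thick limb genes 19 were lower and none higher, with a median of -3.94. The rule held Slc12a1 down in members, and the Slc12a1 set was chosen for it. Differences in genes that go along with Slc12a1 are therefore partly set by the choice of cells. Umod had 15.4 and 22.7 CPM in the set against 909 and 788 CPM (log2 change -5.72, SE 0.30, edgeR adjusted p = 2.4e-06). The potassium channel gene Kcnj1 changed by -6.12, Cldn10 by -5.16, Casr by -5.39 and the sodium pump subunit gene Fxyd2 by -5.24. Kng2, a kininogen gene, changed by -6.73 and the phosphatase inhibitor gene Ppp1r1a by -6.12. Sostdc1, with 37.4 and 32.8 CPM against 1114 and 935, changed by -5.03. The thick limb genes that did not pass the test were Egf, with 2.56 and 5.004 CPM against 4.61 and 5.59, and Ppp1r1b, with 13.7 and 9.55 CPM against 3.46 and 5.59.

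Collecting duct genes rose here too, 11 of 12, with a median of 5.04. Gata3 had 8.24 and 6.45 CPM in the Slc12a1 set and was higher by 5.99 (SE 0.18, edgeR adjusted p = 6.1e-07), Aqp2 by 6.61 and Wnt9b by 4.64. Tfap2a, with 2.04 and 4.13 CPM in the Slc12a1 set and 61.3 and 52.8 CPM in the Tfap2b Pou3f3 set, was higher by 4.03 (SE 0.27), whereas its relative Tfap2b, which the rule used, had 556 and 495 CPM in the Slc12a1 set. Rprm, which leads a cluster of members, was higher by 6.76. Of 19 tested distal convoluted and connecting tubule genes 6 rose and 10 fell: Calb1 rose by 4.94, Scnn1b by 5.52 and the sodium-calcium exchanger gene Slc8a1 by 5.05. Krt18 was higher by 2.41.

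Patterning factors moved in both directions. Gata2, the relative of Gata3, was higher by 6.44 and the homeobox genes Emx1 and Emx2 by 1.46 and 1.33. Emx1, at 8.54 and 8.19 CPM against 1.68 and 4.04, was not called without the replicate block or with cells limited to 8000 to 40000 UMIs. Irx1, with 288 and 237 CPM in the Slc12a1 set, was lower by a log2 change of -3.53 (SE 0.26, edgeR adjusted p = 1.52e-05) and Irx2 of -3.30. The orphan nuclear receptor genes Esrrb and Esrrg were lower by log2 changes of -5.48 and -1.42. Sim2 changed by -2.38, but by 0.14 with all sets limited to 8000 to 40000 UMIs, where it was not called. In all, 10 of 22 factors were higher and 7 lower, and 4 were higher without the replicate block. By DESeq2 Sim2 was not called (adjusted p = 0.201). Notch genes were higher in 5 of 14 and lower in none, among them Notch2 by 0.75 and the target Heyl by 2.54, and 3 were higher without the replicate block or by DESeq2. Wnt genes were higher in 7 of 14 and lower in 3, with the receptor gene Lgr4 at -1.23. Of 25 cell cycle genes 1 rose and 1 fell.

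Against the Slc12a3 set, transport genes of the distal convoluted tubule were low and many dividing-cell genes were high, several of them mainly in replicate 1. Of 14273 genes 35.3% were called, 2459 higher (17.2%) and 2574 lower (18.0%), with a median log2 fold change of 0.03. Of 19 tested distal convoluted and connecting tubule genes 17 were lower and none higher, with a median of -3.03. The rule held Slc12a3 and S100g down in members, and the other set was chosen for Slc12a3. These differences too are therefore partly set by the choice of cells. The magnesium channel gene Trpm6 had 5.55 and 4.55 CPM in the set and 183 and 240.04 CPM in the Slc12a3 set (log2 change -5.52, SE 0.27, edgeR adjusted p = 2.65e-06). Klhl3 and Wnk1, regulators of the NCC cotransporter, changed by -3.95 and -3.61, and the klotho gene Kl by -5.46. Calb1 had 444 and 343 CPM against 2252 and 4528 (log2 change -3.26), and Slc8a1 changed by -2.98. Scnn1b, with 220.0 and 315 CPM against 386 and 269, did not pass the test. Secreted and transporter genes of that segment were lower as well, Spp1 by a log2 change of -6.76, Defb1 of -6.11 and Abca13 of -6.57. Of 21 thick limb genes 13 were lower, among them Kcnj1 at -5.84 and Tmem52b at -5.45, and 3 were higher, with Umod at 1.31. Both sets were limited in Slc12a1, so their thick limb levels are also partly set by the choice of cells.

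Collecting duct genes were higher in 11 of 12 here as well, with a median of 3.62, although the Slc12a3 set held some of them: Aqp2 at 172 and 52.9 CPM (log2 change 3.28, SE 0.46, edgeR adjusted p = 0.00058) and Gata3 at 263 and 123 CPM (1.33). Elf5 was higher by 3.96 and Wnt11 by 4.65. The exception, Aqp3, had 226 and 290 CPM in the set against 208 and 114 and did not pass the test. Intercalated genes were lower in 3 of 10, by DESeq2 in 1, and higher in 1, with the ammonia transporter gene Rhbg at -3.29, and the Slc12a3 set summed 1729 and 672 CPM of these genes against 467 and 774 CPM in the Tfap2b Pou3f3 set. Of the 206 cells of the Slc12a3 set, 158 lay in the cluster led by Slc12a3 and 25 in the one led by Atp6v1g3, an intercalated gene. The part of these 25 cells in the levels of the Slc12a3 set was not tested. Emx1, a homeobox gene, had 8.54 and 8.19 CPM against 292 and 319 (log2 change -5.32), Esrrb changed by -4.94 and Ehf, an epithelial ETS factor, rose by 3.29. Irx1 rose by 2.64 from 1.48 and 4.97 CPM. Of 25 cell cycle genes 17 rose, 9 without the replicate block, and 1 fell, Rrm2. Top2a rose by 1.28, with 1.75 in replicate 1 and 0.58 in replicate 2. Plk1, called higher, changed by 2.10 and -0.03 in that order, whereas Mcm6 changed by 0.54 and 0.65. Of 14 Wnt genes 10 rose and 2 fell, Rprm rose by 6.27, and Nrarp changed by -2.59.

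**Figure D5:**
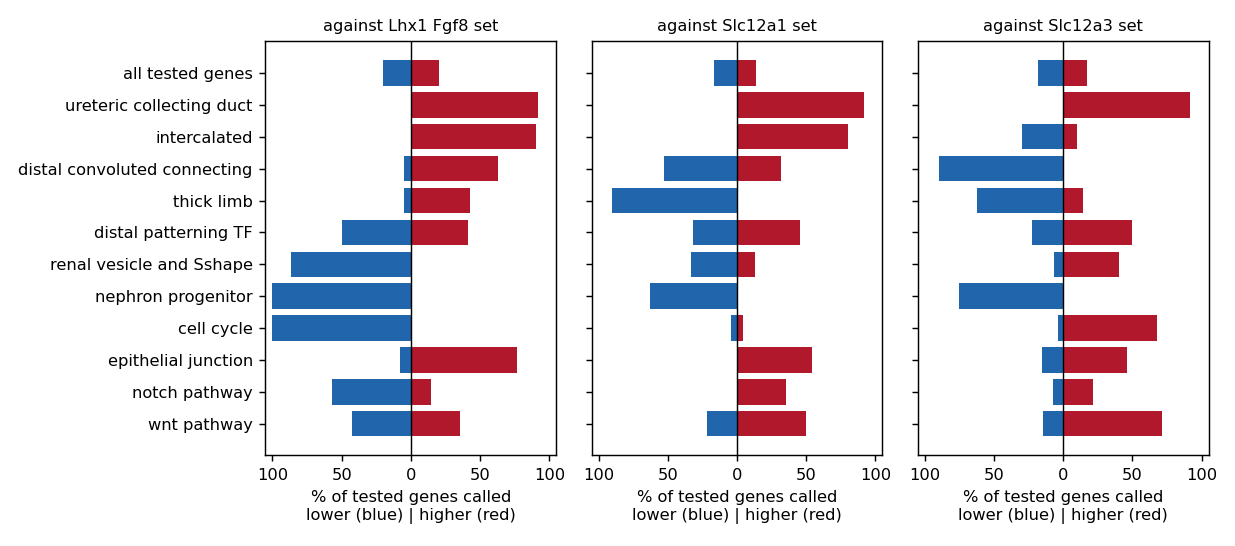
Share of the tested genes of each list called higher (red, to the right) or lower (blue, to the left) in the Tfap2b Pou3f3 set against each comparison set, beside all 14273 tested genes at the top. The ureteric and collecting duct list has 11 of 12 genes higher in all 3 comparisons, and the thick limb list 19 of 21 lower against the Slc12a1 set.

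Across the 4 sets Tfap2b was lowest in the set chosen by it, at 128 and 123 CPM, followed by the Lhx1 Fgf8 set (161 and 174), the Slc12a3 set (256 and 258) and the Slc12a1 set (556 and 495); these values are a description, since the rule used the gene. Slc12a1 had 3.63 and 5.91 CPM in members, a level held down by the limit of the rule.

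Markers of other cell types were low. Summed over 8 stromal genes the members had 13.7 and 18.7 CPM, against 6534 and 5904 CPM in stromal cells. Over 6 endothelial genes they had 5.12 and 3.64 CPM, against 4212 and 4676 CPM in endothelial cells. Col3a1 and Pecam1, which the rule used, were left out of these sums. The rule dropped cells by these genes, so the low sums are partly set by it. Of 7 neural crest genes 5 had no UMI in the set; this lineage also uses Tfap2b. Over 8 nephron progenitor genes the set had 26.9 and 22.3 CPM. Over 12 proximal tubule genes it had 229 and 283 CPM, which the 13 members outside the 3 clusters carried at 5595 and 5109 CPM, against 37.2 and 40.5 CPM in the Aqp2 Fxyd4 members.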

How the data were processed

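Single-cell RNA was measured in 2 kidney libraries of 1 group. The authors deposited raw UMI counts per gene and barcode for all barcodes, with 32285 genes; the headers name Cell Ranger 4, whereas the submitters' processing notes name Cell Ranger 6.0.1 and mm10. The members and gene lists were chosen with earlier results of these data known. Cells were kept at 3000 UMIs, 500 genes and at most 20% mitochondrial UMIs. Clustering (scanpy 1.11.5) used 2000 variable genes without the genes of the rule, 30 components, 15 neighbours and Leiden resolution 1. Tests used edgeR 4.0.16 (R 4.3.3) on counts summed per library and set: filterByExpr, TMM scaling, library as a block, two-sided quasi-likelihood F tests with 3 residual degrees of freedom, and Benjamini-Hochberg adjustment at 0.05. On simulated sums of 14294 genes for the Slc12a1 comparison, 163 of 200 changed genes were recovered with 8 false calls. The simulation gave every gene the same spread, no library effect and no difference between sets outside the 200 genes. Its counts therefore do not carry over to the comparisons made here.

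Sums from 1 library share their cells' source, which is where the pairing comes from; differences between libraries correlated across genes at 0.17 to 0.44 over the 6 pairs of sets. Mitochondrial genes and genes of any rule were not tested. Named genes are list members, plus the 10 called genes of largest fold per comparison and direction with the same sign in both libraries and at least 50 CPM in the higher set, leaving out Gm, Rik, ribosomal and haemoglobin symbols; some list genes are not reported here. Alternatives were DESeq2 1.42.0, RLE scaling, no filter, no block, other limits on cells and sets, thinning to 3000 UMIs, removal of doublets (Scrublet), subtraction of free RNA and each library alone. CPM is a level per library total; 3' counts are not compared between genes as molecules per length. Depth limits low genes: 3 UMIs were taken as the most that a count of 0 allows.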

Additional observations from a re-analysis of the deposited data

How the results depend on the processing

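Counts of called genes against the Lhx1 Fgf8, Slc12a1 and Slc12a3 sets were 5823, 4358 and 5033. They stayed within 1.5 times of this with DESeq2 (4640, 3387, 4036), RLE scaling, no filter on low counts, no replicate block (4264, 2964, 3685), at least 10000 UMIs, doublets removed, both transporters at 0, Tfap2b at least 3 and stricter comparison sets. Limiting cells to 8000 to 40000 UMIs gave 2308, 2080 and 3000 calls, and thinning each cell to 3000 UMIs gave 1270, 1226 and 1453, with fewer UMIs by construction. At most 10% mitochondrial UMIs gave 2726 calls against the Slc12a1 set and 2799 against the Slc12a3 set. Subtracting free RNA left 93, 0 and 0 calls; the estimate takes all haemoglobin UMIs as free RNA, which was not tested, and puts it at 85.2% of the Lhx1 Fgf8 sum of replicate 1 and at 0.439% to 9.92% of the other sums, and all sums share 1 estimate of spread. In 1 library alone, 5818 to 5822, 4356 to 4358 and 5030 to 5033 of the called genes kept their direction, with no test. The genes were called from both libraries together, so this agreement was largely set in advance and is no independent check. The share of members, 1.26% of kept cells, was 1.53% at 10000 UMIs, 0.873% with both transporters at 0, 0.955% with Tfap2b at least 3, and 0.927% to 1.52% by library. Without the filter 6241, 5134 and 5526 genes were called, and those against the Slc12a1 set were split 2028 higher and 3106 lower in place of 1994 and 2364. Of 86 named gene results, 84 kept their side of the threshold without the replicate block, 83 with DESeq2 and 6 with free RNA subtracted. Reversals were Irx1 (0.12), Sim2 (0.72) and Lgr5 (0.091) against the Lhx1 Fgf8 set and Sim2 (0.14) against the Slc12a1 set in the band of 8000 to 40000 UMIs, and Rbpj (1.37) against the Lhx1 Fgf8 set with free RNA subtracted. The cause was not tested.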
